A study of Mus musculus with 16 samples.

Results

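The genes of the Notch pathway described here were 4 receptors (Notch1, Notch2, Notch3 and Notch4), 2 ligands (Jag1 and Dll4) and 3 target genes (Hes1, Hey1 and Heyl). They were taken by symbol from a bulk RNA-seq table of mouse knee joint cells, which held all 9 of them among 13733 genes. The 16 libraries formed 4 groups of 4. Wildtype (WT) C57BL/6 mice and Trem2-/- mice, a constitutive knockout of a surface receptor of myeloid cells, were each sampled uninjured (D0) and 7 days after rupture of the anterior cruciate ligament by a single compression of the tibia (D7). Mice were injured at 10 weeks of age and, per the study's methods, were male. Per the study's methods, buprenorphine for pain relief and saline were injected just after the injury, so injury and these agents cannot be told apart; no further allele is named. One field of the sample labels describes homogenized joints of control and diabetic mice and the labels give an age of 16 weeks, whereas the study's methods describe cells released from the joint with collagenase. Genotype and injury state, on which the sources do not differ, were used here. Neither source says whether a library came from 1 animal, so p-values measure the spread between these libraries, which may be partly technical.

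Notch receptors span the cell membrane and are switched on by ligands of the Jagged and Delta-like families on a neighbouring cell. Ligand binding allows an ADAM protease and then gamma-secretase to cut the receptor, and the freed inner domain enters the nucleus, binds the DNA-binding protein Rbpj and turns on target genes of the Hes and Hey families. Notch1 and Notch4, with the ligand Dll4, are known for their roles in the endothelial cells that line blood vessels. Notch3 is characteristic of the mural cells (pericytes and smooth muscle) around vessels, and Notch2 is used by several white blood cell lineages. In the joint the pathway is known from the synovium and from cartilage.

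Trem2 itself was lower in Trem2-/- libraries, at 3.42 to 4.84 CPM against 10.7 to 22.5 CPM in WT at D7 and at 0.948 to 2.68 against 2.51 to 5.61 CPM at D0, where the groups overlapped. Its reads were not at 0 in the knockout, and which part of the gene they came from was not tested. Recovered reads on the listed genes lay between 11567073 and 32867818 per library (median 16399898). The scarcest member in any library, Heyl, still rested on 235 reads there, so counting error was small for all 9. Markers of blood vessels, connective tissue and white blood cells were all present: none of the 12 endothelial, 12 mural, 8 fibroblast or 5 leukocyte marker genes was at 0 in any library. The libraries were thus a mixture of cell types, and in such bulk samples fewer cells of a type and less RNA per cell cannot be told apart.

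Of the 9 members, 6 had a promoter entry in RefSeq (build GRCm38.p6), of which the 250 bases before the start site were read; Hes1, Hey1 and Heyl had none. The 3 printed here are those of Notch4 and Dll4, whose levels moved together across libraries, and of Notch2, whose level did not move with theirs. Capitals mark AGGAAG or its reverse complement CTTCCT, 1 form of the GGAA core of ETS factors, a family that includes endothelial regulators. GGAA beside other bases, as in the Dll4 and Notch2 promoters below, was not marked or counted.
Notch4 (chr17:34564045-34564294, plus strand): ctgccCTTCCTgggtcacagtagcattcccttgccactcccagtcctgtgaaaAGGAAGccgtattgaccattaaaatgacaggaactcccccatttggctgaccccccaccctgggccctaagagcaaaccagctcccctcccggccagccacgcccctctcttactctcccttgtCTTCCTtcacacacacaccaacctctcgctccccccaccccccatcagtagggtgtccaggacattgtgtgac
Dll4 (chr2:119325534-119325783, plus strand): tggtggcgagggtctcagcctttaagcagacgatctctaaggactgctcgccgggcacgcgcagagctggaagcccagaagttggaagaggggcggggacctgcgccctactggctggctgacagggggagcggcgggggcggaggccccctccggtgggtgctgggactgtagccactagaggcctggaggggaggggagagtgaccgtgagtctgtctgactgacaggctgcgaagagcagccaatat
Notch2 (chr3:98013288-98013537, plus strand): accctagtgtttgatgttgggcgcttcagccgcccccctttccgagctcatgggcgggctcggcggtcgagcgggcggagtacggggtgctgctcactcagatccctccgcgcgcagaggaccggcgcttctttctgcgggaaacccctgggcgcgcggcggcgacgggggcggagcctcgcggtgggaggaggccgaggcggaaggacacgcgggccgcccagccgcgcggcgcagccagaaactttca
Notch4 carried 3 matches to AGGAAG or CTTCCT, starting 245, 197 and 73 bases before the start site. The other 5 promoters carried none of this form, which does not mean that they lack GGAA. The sequence occurs in 29.5% of the 32851 promoter entries of the same length. TGGGAA (reverse complement TTCCCA), the core sequence bound by Rbpj, was in 0 of the 6 promoters and in 21.6% of all entries. The 2 motifs can share bases where they adjoin, and a match is only a description of letters.

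Values below are TMM-normalized CPM, that is read numbers scaled to the size of the library, and are given for replicates 1 to 4 in that order. Replicate numbers do not pair libraries across groups. Differences were tested with limma on the log2(CPM + 1) scale over the 13173 genes that reached 1 CPM in 4 or more libraries, and a fold change is a difference on that scale. A gene was called, by the thresholds the study set, at an unadjusted p under 0.05 and a log2 fold change beyond 0.32 in either direction, and Benjamini-Hochberg adjusted p-values over all genes tested are given beside it. Between D0 and D7, 37.4% of all genes were called in WT and 54.5% in Trem2-/-. The members' counts, 2 of 9 in WT and 3 of 9 in Trem2-/-, were below these shares.

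**Figure D1:**
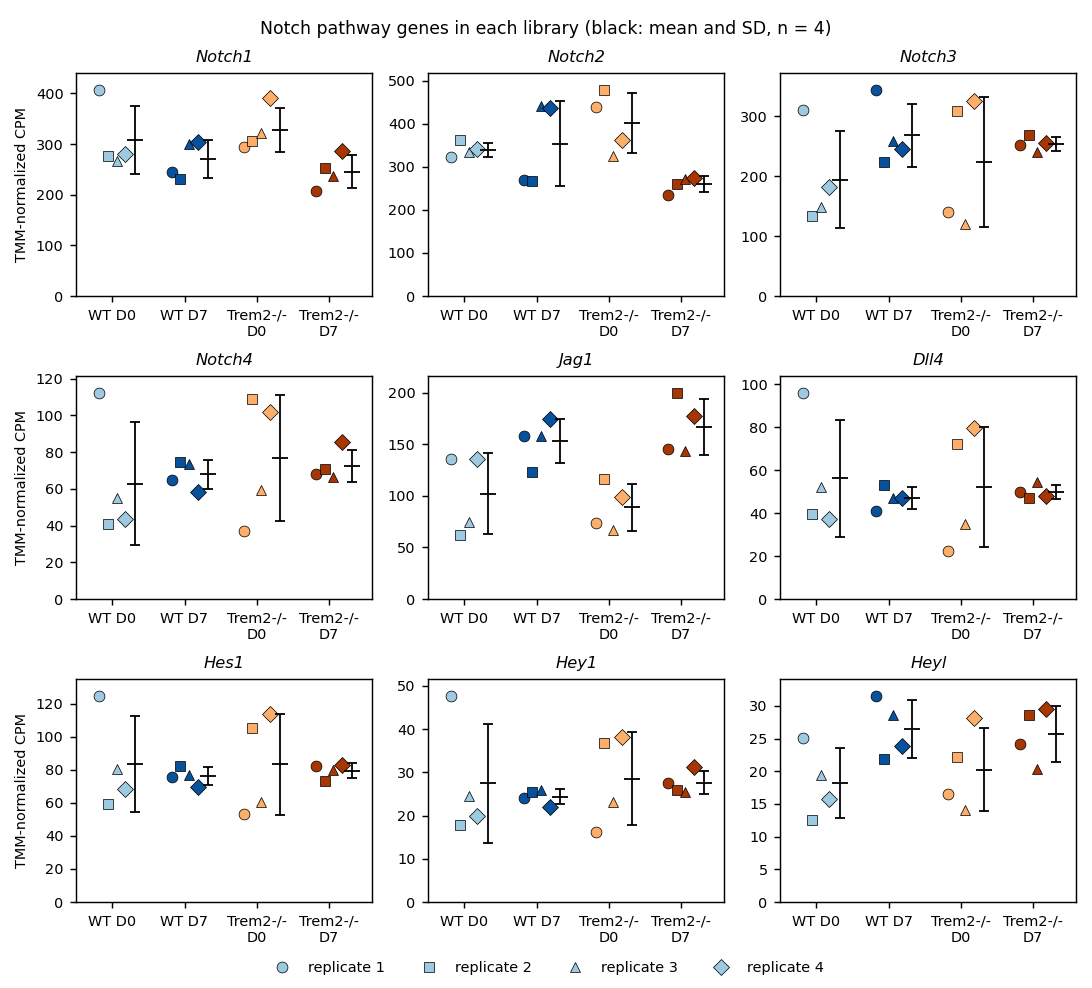
TMM-normalized CPM of the 9 Notch genes (vertical axes, each starting at 0) in the 4 groups (horizontal axes), with 1 symbol per library and the mean and SD of each group in black (n = 4). At D0 a few libraries stand high in most panels, at D7 most groups lie closer together, with Notch2 at WT D7 (267 to 442 CPM) as an exception. Notch2 at Trem2-/- D7 is tight and low (233 to 275 CPM).

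Notch2, the receptor with the highest mean CPM, fell after injury in Trem2-/- libraries and was not called in WT. At Trem2-/- D0 the libraries had 439, 479, 324 and 363 CPM, and at Trem2-/- D7 they had 233, 259.9, 272 and 275 CPM. Every injured library was below every uninjured one. The log2 fold change was -0.61 (SE 0.17, adjusted p = 0.0078), a level at D7 of 0.655 times that at D0. In WT, uninjured libraries had 322, 362, 333 and 340.3 CPM, the tightest group of the gene, with an SD of 17.1. Injured WT libraries split into a low pair (269 and 267 CPM in replicates 1 and 2) and a high pair (442 and 436 CPM in replicates 3 and 4). The WT log2 fold change was 0.02 (SE 0.17, adjusted p = 0.952).

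Notch2 was also the member on which the genotypes differed most. At D7 the Trem2-/- mean was 260.1 CPM ± 18.9 (SD, n = 4) against 353 CPM ± 98.6 in WT, a log2 fold change of -0.40 (SE 0.17, adjusted p = 0.631 by limma). Its unadjusted p was 0.034. The groups overlapped, since the low pair of WT libraries lay inside the Trem2-/- range. Notch2 was 1 of 9 members called, lower in Trem2-/-, where 5.72% of all genes were called in either direction and 4.53% lower. The call was lost when WT D7 replicate 3, WT D7 replicate 4, Trem2-/- D7 replicate 1 or Trem2-/- D7 replicate 2 was left out (log2 fold changes of -0.28, -0.29, -0.35 and -0.40). The interaction, which compares the injury change between genotypes, was -0.63 for Notch2 (SE 0.24, adjusted p = 0.579 by limma). It was called (unadjusted p = 0.021), also whichever library was left out (-0.75 to -0.51). Notch2 was 1 of 9 members called there, where 7.79% of all genes were called and 5.02% with a negative sign. At D7 between genotypes, as in the interaction, 0 genes had an adjusted p under 0.05 (limma, with 958 and 1075 genes at an unadjusted p under 0.05).

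White blood cell markers did not move as 1 block after injury. Between the genotypes at D7 and in the interaction, the median of each list given here was negative, as the Notch2 value was. The summed CPM of 5 leukocyte markers (Ptprc, Coro1a, Laptm5, Cd53 and Lcp1) ranged from 3182 to 5455 at Trem2-/- D0, from 1156 to 1445 at Trem2-/- D7, from 2535 to 4957 at WT D0 and from 1469 to 3195 at WT D7. All 5 were called lower in both injury comparisons, at D7 in Trem2-/- against WT, and in the interaction, although Notch2 had a log2 fold change of only 0.02 in WT after injury where their median was -0.75. Of 5 macrophage markers 4 were called higher in WT (median 1.43), and 3 were called higher and 1 lower in Trem2-/- (median 0.82). All 5 neutrophil and 4 B cell markers were called lower in both genotypes, as were 3 of 4 T cell markers in WT and 4 of 4 in Trem2-/-. These injury counts stand beside 37.4% of all genes called in either direction in WT and 54.5% in Trem2-/-. At D7 in Trem2-/- against WT, median log2 fold changes were -0.64 for the leukocyte and -0.53 for the macrophage markers (3 of 5 called lower). They were -0.51 for neutrophil (0 of 5 called), -0.99 for B cell (4 of 4 lower) and -0.31 for T cell markers (1 of 4 lower). Of all genes, 4.53% were called lower there, and 5.02% in the interaction. Among the WT D7 libraries, replicates 3 and 4, the high pair for Notch2, also had the highest leukocyte sums (3195 and 2223, against 1469 and 1926). At D7 the leukocyte sums of the 2 genotypes did not overlap. With each genotype's mean subtracted, the 8 libraries at D7 gave Pearson's r = 0.83 between Notch2 and the mean log2 level of the 5 leukocyte markers, and those at D0 gave 0.26, both as a description. Over the 8 libraries at D0, Pearson's r without that subtraction was 0.398 and Spearman's rho was 0.262 (exact permutation p = 0.327 and 0.536), and r was 0.066 without the 2 libraries farthest from the median. At D7 r was 0.890 and rho 0.762 (exact permutation tests, adjusted p = 0.010 and 0.117 over 54 relations), with the genotype difference included. There r was 0.618 without the 2 farthest libraries. The part of white blood cells in the Notch2 result was not tested.

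Notch1, the best known family member, fell after injury in Trem2-/- libraries. Uninjured Trem2-/- libraries had 295, 305, 322 and 391 CPM and injured ones 208, 252, 237 and 286 CPM. The groups did not overlap, with 286 CPM in the highest injured and 295 CPM in the lowest uninjured library. The log2 fold change was -0.42 (SE 0.15, adjusted p = 0.032), and the call was lost without Trem2-/- D0 replicate 4 (-0.33) or without Trem2-/- D7 replicate 1 (-0.34). In WT, 407, 277, 267 and 281 CPM at D0 stood against 244, 232, 300.5 and 304 CPM at D7. Replicate 1 stood far above the other 3 uninjured libraries, and the log2 fold change was -0.18 (SE 0.15, adjusted p = 0.391). The difference between the genotypes' injury changes was tested by the interaction and was not called for Notch1. All 5 leukocyte markers were also called lower in Trem2-/- after injury (median -1.79), beside 27.9% of all genes. Notch1 had Pearson's r = 0.665 with their mean log2 level over the 8 libraries at D7 and -0.676 at D0. Without the 2 libraries farthest from the median, r was 0.104 and -0.807. The part of white blood cells in the Notch1 result was not tested. Of the exon bases of Notch1, 9.76% overlap genes on the opposite strand (0610009E02Rik and Gm13568), and whether reads were counted by strand is not given in the sources used here.

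Notch3, the mural receptor, was not called in any comparison. Its uninjured libraries spread widely, from 133 to 311 CPM in WT and from 120.4 to 326 CPM in Trem2-/-. Injured libraries lay between 224 and 344 CPM in WT and between 240.4 and 269 CPM in Trem2-/-. The log2 fold change was 0.53 in WT (SE 0.31, adjusted p = 0.201) and 0.32 in Trem2-/- (SE 0.31, adjusted p = 0.390). Without WT D0 replicate 1, the uninjured WT library with the highest Notch3 level, the WT value was 0.78 and was called (unadjusted p = 0.018).

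Notch4, a receptor largely restricted to endothelium, showed no called change and the widest relative spread of the receptors in uninjured WT libraries (a coefficient of variation of 53.3%). It had 112, 40.7, 54.9 and 43.6 CPM at WT D0 and 37.3, 109, 59.6 and 102 CPM at Trem2-/- D0. WT replicate 1 and Trem2-/- replicates 2 and 4 stood above all other uninjured libraries. At D7 the 8 libraries lay between 58.1 and 85.5 CPM, within the range of the uninjured libraries of their own genotype. The log2 fold change was 0.23 in WT and 0.04 in Trem2-/- (SE 0.32 in both).

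Jag1, a Jagged-family ligand, was the member that rose in both genotypes. WT libraries had 135, 61.9, 75.0 and 136 CPM at D0 and 158, 124, 158 and 175 CPM at D7. In WT 3 of the 4 injured libraries were above every uninjured one, and the log2 fold change was 0.66 (SE 0.24, adjusted p = 0.054 by limma). Its unadjusted p was 0.016. The WT call was lost without WT D0 replicate 2 (0.45) or without WT D0 replicate 3 (0.54). Trem2-/- libraries had 73.4, 116, 67.2 and 99.1 CPM at D0 and 146, 200.0, 144 and 177 CPM at D7. Here the groups did not overlap, and the log2 fold change was 0.92 (SE 0.24, adjusted p = 0.0053), a level at D7 of 1.89 times that at D0. The 2 changes share no library, and their difference was not called in the interaction. Connective tissue markers rose as well: 6 of 8 fibroblast markers were called higher in WT and 7 of 8 in Trem2-/- (median log2 fold changes 1.42 and 2.06). All 4 chondrocyte and 3 osteoblast markers were called higher in both. Of all genes, 19.3% were called higher in WT and 26.5% in Trem2-/-. The part of connective tissue cells in the Jag1 result was not tested.

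Dll4, the Delta-like ligand of endothelial tip and arterial cells, did not change by the test. Uninjured libraries ranged from 37.1 to 96.1 CPM in WT and from 22.6 to 79.6 CPM in Trem2-/-, a 3.53-fold span in the latter. Injured libraries ranged from 41 to 53.1 CPM in WT and from 46.9 to 54.6 CPM in Trem2-/-. The log2 fold change was -0.15 in WT (95% interval -0.87 to 0.57) and 0.10 in Trem2-/- (-0.62 to 0.82), intervals wide enough to hold changes as large as that of Jag1 in WT.

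Hes1 and Hey1, transcriptional repressors induced by Notch, did not change by the test either. Hes1 ranged from 59.1 to 125 CPM at WT D0 and from 69.4 to 82.4 CPM at WT D7, with a log2 fold change of -0.07 (95% interval -0.57 to 0.43). In Trem2-/- it ranged from 53.4 to 114 CPM at D0 and from 73.0 to 83.0 CPM at D7, with a log2 fold change of 0.01 (-0.49 to 0.51). Hey1 had 47.7 CPM in replicate 1 and 17.9 to 24.5 CPM in the others at WT D0, and 16.3, 36.8, 23.1 and 38.2 CPM at Trem2-/- D0. At D7 its libraries lay between 22.0 and 25.8 CPM in WT and between 25.5 and 31.4 CPM in Trem2-/-. Its log2 fold changes were -0.07 in WT (95% interval -0.65 to 0.52) and 0.02 in Trem2-/- (-0.56 to 0.61). The same uninjured libraries were high for both genes as for Notch4.

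Heyl, the Hey-family member found in smooth muscle and pericytes, was called higher after injury in WT. WT libraries had 25.0, 12.5, 19.4 and 15.7 CPM at D0 and 31.5, 21.9, 28.6 and 23.8 CPM at D7. The groups overlapped, with 2 injured libraries above every uninjured one, and the log2 fold change was 0.55 (SE 0.22, adjusted p = 0.074 by limma). Its unadjusted p was 0.026. The call was lost when WT D0 replicate 2, WT D0 replicate 4, WT D7 replicate 1 or WT D7 replicate 3 was left out (0.39, 0.50, 0.46 and 0.51). In Trem2-/- the libraries had 16.5, 22.2, 14.0 and 28.2 CPM at D0 and 24.2, 28.6, 20.3 and 29.5 CPM at D7. There the log2 fold change was 0.36 (SE 0.22, adjusted p = 0.181), and without Trem2-/- D0 replicate 4 it was 0.53 and was called (unadjusted p = 0.028). The 12 mural markers given below had median log2 fold changes of 0.51 in WT and 0.28 in Trem2-/-. Their part in the Heyl and Notch3 results was not tested.

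Over the 9 members, 2 were called in WT after injury, both higher, against 19.3% of all genes called higher, and 0 of 9 had an adjusted p under 0.05 against 28.5% of all genes. The WT groups did not overlap for 0 of 9 members, against 22.2% of all genes. In Trem2-/- 1 was called higher and 2 lower, where 26.5% of all genes were called higher and 27.9% lower. All 3 had an adjusted p under 0.05 and groups that did not overlap, against 53.2% and 52.4% of all genes. The median log2 fold change of the members was 0.02 in WT and 0.04 in Trem2-/-, beside -0.04 for all genes tested in either comparison. At D0 0 of 9 members were called between genotypes (2.15% of all genes), with log2 fold changes from -0.17 to 0.29, and without WT D0 replicate 1 Notch4 was called (0.61, unadjusted p = 0.044). Apart from Notch2, the members' log2 fold changes between genotypes at D7 ranged up to 0.17 and none was called. The 2 genotype and 2 injury comparisons draw on the same 4 groups, so they are not independent of each other.

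**Figure D2:**
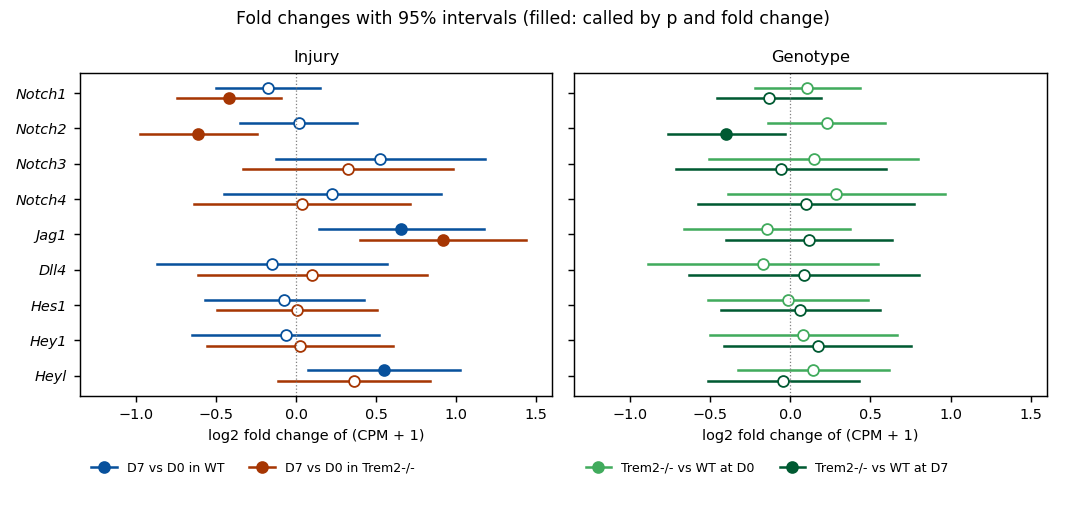
Log2 fold change of (CPM + 1) with its 95% interval for each gene, for injury within each genotype (left) and for genotype within each day (right). Filled points passed an unadjusted p under 0.05 and a log2 fold change of 0.32: Jag1 and Heyl in WT, Notch1, Notch2 and Jag1 in Trem2-/-, and Notch2 between genotypes at D7.

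Compared per kilobase of merged exon length, Hes1 had the highest level in every group and Heyl the lowest. At WT D0 Hes1 had 40.9 CPM per kb ± 14.3 (SD, n = 4) and Heyl 3.55 ± 1.05. Neighbours in this order mostly overlapped: at WT D0 Notch2 (31.5 CPM per kb), Notch3 (24.0), Notch1 (21.6), Jag1 (17.5), Dll4 (14.6), Hey1 (8.43) and Notch4 (7.80) formed a chain in which each range overlapped the next. At Trem2-/- D7, where libraries lay closest, Hes1 (39.0 CPM per kb) was above Notch3 (31.5) in every library and the ranges did not overlap. There Jag1 (28.6) stood next to Notch3 and ahead of Notch2 (24.1), with overlapping ranges in both cases, and Notch1 (17.3), Dll4 (12.9) and Notch4 (9.02) followed without overlap. The place of Notch1 depends on the length used: at WT D0 it was the fourth with 14232 bp of merged exons and the second with the 9488 bp of its principal transcript.

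Shares of the receptors within a library do not depend on how the library was scaled. As shares of the summed CPM per kb of the 4 receptors, Notch2 had the largest mean share at D0 (38.3% in WT and 39.1% in Trem2-/-) and Notch3 the largest at D7 (35.7% and 38.5%). Without division by length the order at D7 turns, with Notch2 at 36.4% and 31.2% and Notch3 at 28.3% and 30.6%. At WT D7 the share of Notch3 was above that of Notch2 in replicates 1 and 2 and below it in replicates 3 and 4. The share of Notch1 in WT was 25.8, 26.1, 25.0 and 24.9% at D0 and 18.5, 20.9, 20.5 and 21.5% at D7. The groups did not overlap, and the difference was -5.13 percentage points (exact two-sided permutation test, p = 0.029, the smallest that 70 assignments allow; adjusted p = 0.229 over 16 tests). The share of Notch3 in Trem2-/- was 20.7, 32.5, 19.8 and 35.3% at D0 and 41.1, 39.7, 37.2 and 36% at D7, a difference of 11.4 points with the same exact p and adjusted p. Notch2 in Trem2-/- had a share of 29.5% to 48.9% at D0 and 28.5% to 31.6% at D7, a difference of -9.60 points (exact permutation p = 0.057). None of the 16 share tests had an adjusted p under 0.05, and the shares of the genotypes overlapped for each receptor on both days.

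**Figure D3:**
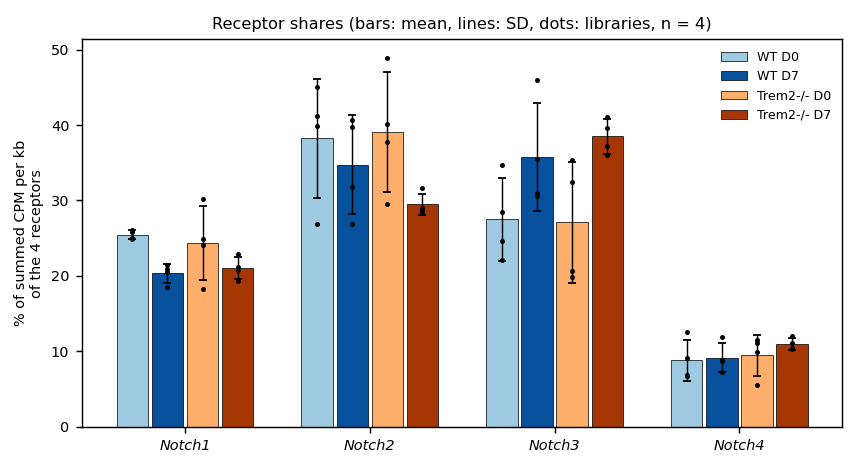
Share of each receptor in the summed CPM per kb of the 4 receptors (vertical axis, percent) in the 4 groups, with bars for the mean, lines for the SD and dots for the libraries (n = 4). The mean share of Notch1 in WT is 25.5% at D0 and 20.3% at D7, that of Notch3 in Trem2-/- is 27.1% and 38.5%, and that of Notch4 lies between 8.81% and 11.0% in all groups.

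The other genes of the pathway are given as counts beside the share of all genes called. Of 42 further pathway genes listed, 41 were tested; Dlk2 was too low, and Dll3, Rbpj, Maml2, Hes5 and Hes7 were not analysed here. In WT 8 were called higher and 0 lower after injury, beside 37.4% of all genes called in either direction (median log2 fold change -0.04, as for all genes), and in Trem2-/- 14 were called higher and 9 lower, beside 54.5% of all genes (median 0.07, beside -0.04 for all genes). Between genotypes 4 were called lower at D7 (Dtx4, Dtx1, Lfng and Aph1c), where 4.53% of all genes were, and 0 at D0, where 2.15% of all genes were called. In the interaction 4 were called, where 7.79% of all genes were. Dtx4 (-0.997, unadjusted p = 0.00081), Lfng (-0.56) and Spen (-0.35) had negative values and Maml3 (0.48) a positive one, each with an adjusted p of at least 0.579 (limma). Spen and Maml3 are named only for completeness of this count, after their values were seen.

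In the lists that follow, counts stand against 37.4% of all genes called in WT and 54.5% in Trem2-/-. Among the other ligands, 2 of 4 tested were called higher in both injury comparisons, beside the connective tissue markers given with Jag1. The ligand Dner was not counted here but with the genes for trafficking and turnover below. Dlk1, a Delta-like protein that lacks the receptor-activating domain, went from 7.69 CPM ± 4.77 to 24.1 CPM ± 2.92 in WT and from 6.82 CPM ± 1.64 to 26.3 CPM ± 7.20 in Trem2-/- (SD, n = 4; log2 fold changes 1.72 and 1.79, adjusted p = 0.0027 and 0.00045). Mfap5, a microfibril protein that can bind Notch, had log2 fold changes of 1.52 in WT and 2.15 in Trem2-/- (adjusted p = 0.047 and 0.0039). Jag2 had -0.10 and -0.58 and Dll1 -0.35 and -0.44, and neither was called. Both are classical activating ligands, unlike the 2 that rose.

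Among the 5 glycosyltransferases that add sugars to the receptor, Pofut1, which adds O-fucose, was called higher in WT (0.61) and in Trem2-/- (0.83, adjusted p = 7.1e-05). Lfng, a Fringe enzyme that alters which ligands a receptor answers to, fell in Trem2-/- from 56.3 CPM ± 5.67 to 31.9 CPM ± 3.16 (log2 fold change -0.80, adjusted p = 0.00037) and had -0.24 in WT, where it was not called. Mfng, the Fringe of many blood cells, had -0.16 and -0.23 and was not called. Of the 10 genes for receptor cleavage, 2 were called in WT, both higher, and 5 in Trem2-/-, with 3 higher and 2 lower. Aph1c, a gamma-secretase subunit, had the largest drop of these (-0.87, adjusted p = 0.0014, in Trem2-/-).

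Of the 11 genes grouped here as trafficking and turnover, 2 were called in WT, both higher, and 8 in Trem2-/-, with 5 higher and 3 lower. The group also held Dner, a ligand outside the classical families, named for this alone. Dner was 1 of the 3 called lower (-0.50, adjusted p = 0.064 by limma), at means of only 0.88 and 0.31 CPM. Numbl, a relative of the Notch inhibitor Numb, rose from 29.6 to 47.4 CPM in WT (0.76) and from 24.7 to 62.6 CPM in Trem2-/- (1.35, adjusted p = 0.00061). Dtx4, a Deltex ubiquitin ligase, fell in Trem2-/- from 55.1 CPM ± 10.0 to 24.0 CPM ± 1.6 (-1.15, adjusted p = 8.1e-05). Of the 4 other target genes tested, Dtx1 was called lower in Trem2-/- (-0.99, adjusted p = 0.0085), while Nrarp (-0.50 in WT and -0.46 in Trem2-/-) and Hey2 (-0.16 and -0.32) were not called. Among these targets, as among Hes1, Hey1 and Heyl, none was called higher in Trem2-/- after injury, beside 26.5% of all genes. In WT Heyl alone of them was called higher, beside 19.3% of all genes.

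The uninjured libraries differed more among themselves than the injured ones. The SD of log2(CPM + 1) was higher at D0 than at D7 for 8 of 9 members in WT and 8 of 9 in Trem2-/-, beside 66.3% and 79.0% of all genes tested. At D0 8 of 9 members had an SD above the median of all genes in either genotype. The exceptions were Notch2 in WT (0.072, beside a median of 0.274) and Notch1 in Trem2-/- (0.182, beside 0.238). Dll4 at Trem2-/- D0 (0.848) was at the percentile 98.5 of all genes.

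Many of the members varied together. After group means were subtracted, the 16 libraries gave Pearson's r between 0.94 and 0.99 for the 6 pairs among Notch4, Dll4, Hes1 and Hey1. The highest was 0.99, between Notch4 and Hey1. Notch3 and Heyl had r = 0.85 with each other and 0.67 to 0.88 with these 4 genes. Notch2 stood apart, with r between -0.10 and 0.27 with the other 8 members. These correlations are descriptions over libraries that share 1 normalization.

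**Figure D4:**
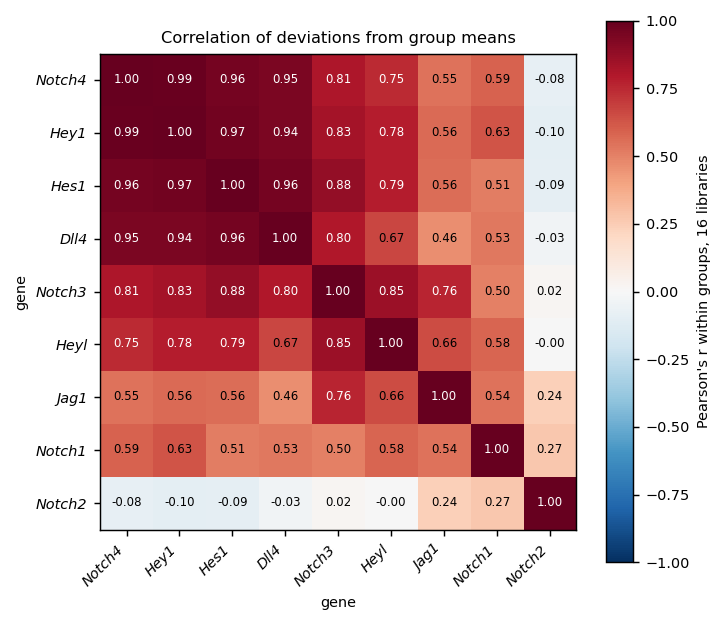
Pearson's r between the 9 genes (both axes) over 16 libraries after subtraction of each group's mean, on a colour scale from -1 to 1. Notch4, Hey1, Hes1 and Dll4 form a block with r of at least 0.94, and the row of Notch2 stays between -0.10 and 0.27.

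This shared variation went with the level of vessel markers. The summed CPM of 12 endothelial markers (Pecam1, Cdh5, Kdr, Tek, Tie1, Emcn, Erg, Esam, Cldn5, Vwf, Egfl7 and Ptprb) was 5263 in WT D0 replicate 1 and 3976 and 4531 in Trem2-/- D0 replicates 2 and 4, and 1978 to 2941 in the other 5 uninjured libraries. The widest gap in this range lay between 2941 and 3976. The same 3 libraries had the highest Notch4, Dll4, Hes1 and Hey1 of the uninjured set. At D7 the sum ranged from 2520 to 3923. None of the 12 endothelial markers was called in any comparison, and their median log2 fold change after injury was 0.01 in WT and 0.03 in Trem2-/-. Of the 12 mural markers, 6 were called higher after injury in WT, beside 19.3% of all genes. In Trem2-/- 5 were called higher and 2 lower, beside 26.5% and 27.9% of all genes. The median log2 fold changes of the mural markers were 0.51 and 0.28.

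Over the 8 uninjured libraries, the mean log2 level of the endothelial markers gave r = 0.991 with Hey1, 0.981 with Hes1, 0.969 with Notch4 and 0.945 with Dll4 (Spearman's rho 0.976, 0.952, 0.929 and 0.833). By exact permutation tests over 54 such relations, the adjusted p ranged from 0.0027 to 0.0055 for Pearson's r of these 4 genes. Without the 2 libraries farthest from the median r was 0.979, 0.954, 0.952 and 0.875. With the leukocyte markers the same 8 libraries gave r = -0.69 for Hes1, -0.67 for Dll4, -0.66 for Hey1 and -0.55 for Notch4. Jag1 had -0.82, Notch3 -0.71, Notch1 -0.68 and Heyl -0.56, and only Notch2 was positive (0.398). None of these had an adjusted p under 0.05 (exact permutation tests, lowest 0.065 for Jag1). The part of white blood cells in these values was not tested. The 3 high libraries lie apart from the other 5, and neither set is large enough for a value of its own. At D7, where the endothelial level varied less, Notch4 still followed it (r = 0.850, adjusted p = 0.023; rho = 0.905, p = 0.0046; exact permutation tests; r = 0.675 without the 2 farthest), whereas Dll4 (r = 0.146) and Hes1 (r = 0.32) had exact permutation p of 0.733 and 0.431.

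Notch3 and Heyl followed the mural markers (Rgs5, Pdgfrb, Cspg4, Acta2, Myh11, Kcnj8, Abcc9, Des, Mcam, Cnn1, Tagln and Higd1b) at D0, with r = 0.973 and 0.966 (rho 0.952 and 0.976, adjusted p = 0.0055 and 0.0040, exact permutation tests). Without the 2 farthest libraries r was 0.945 and 0.916. These relations did not set the endothelial and mural lists apart at D0. With the mural markers Hes1, Hey1, Notch4 and Dll4 had r = 0.963, 0.911, 0.896 and 0.883. With the endothelial markers Notch3 and Heyl had r = 0.894 and 0.921. At D7 r with the mural markers was 0.948 for Notch3 (rho = 0.952, adjusted p = 0.0050, exact permutation test; 0.840 without the 2 farthest) and 0.726 for Heyl (rho = 0.762, adjusted p = 0.090, exact permutation test). Over both genotypes Notch2 followed neither list at D0 (r = -0.042 with the endothelial and 0.117 with the mural markers). Within WT these were -0.889 and -0.959, and within Trem2-/- 0.094 and 0.263 (n = 4 each). The part of vessel cells in the members' values was not tested beyond the endothelial covariate below, and no mural covariate was fitted.

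**Figure D5:**
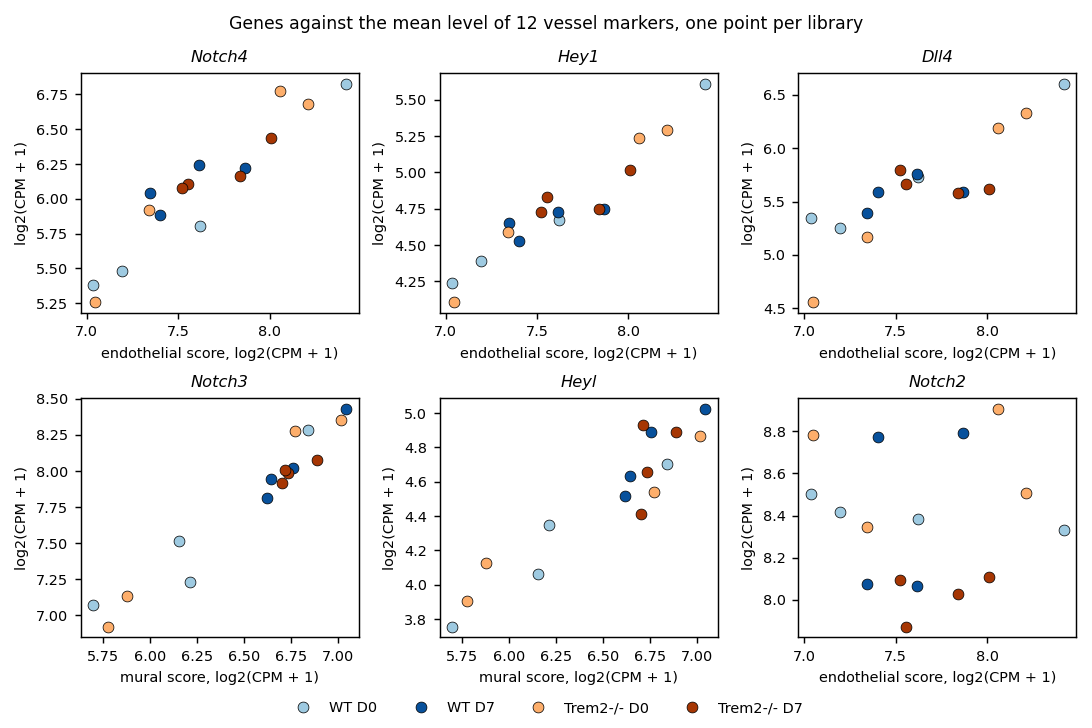
Level of 6 genes (vertical axes, log2(CPM + 1)) against the mean level of 12 endothelial or 12 mural markers (horizontal axes, same scale), with 1 point per library coloured by group. At D0 Notch4, Hey1 and Dll4 climb with the endothelial score and Notch3 and Heyl with the mural score. Notch2 shows no slope at D0 over both genotypes (r = -0.042, with -0.889 in WT and 0.094 in Trem2-/-, n = 4 each). At D7 Dll4 has r = 0.146 with the endothelial score.

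With the endothelial score as a covariate in the fit, an alternative added after the data were seen, the SE of the injury change in WT fell from 0.23 to 0.11 for Hes1, from 0.27 to 0.10 for Hey1 and from 0.32 to 0.11 for Notch4. The 95% intervals then ran from -0.30 to 0.17 for Hes1 and from -0.28 to 0.17 for Hey1 in WT, and from -0.28 to 0.19 and from -0.26 to 0.19 in Trem2-/-. Notch4 in WT had 0.24 with an unadjusted p of 0.04998 (adjusted p = 0.103) and was not called, since the change was under the fold threshold. In the same fit Heyl and Jag1 in WT had adjusted p = 0.0082 and 0.023, and Notch3 in WT was called (0.53, unadjusted p = 0.020, adjusted p = 0.053). That fit held no mural score, and the mural markers had a median log2 fold change of 0.51 in WT. Notch2 kept log2 fold changes of 0.02 in WT and -0.61 in Trem2-/-. The endothelial score itself did not differ between groups by more than its spread, with means from 7.56 to 7.73.

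The genes most like each member, over the 16 libraries after group means were subtracted and among 10551 genes whose mean reached 5 CPM, are given as a description. For Notch4 they were Hey1 (r = 0.99), Tek, Nrp1, Cav1 and Tmem204, and for Hey1 they were Notch4, Nrp1, Mllt4, Tek and Fgd5. For Hes1 they were Ptrf (0.98), Cav1, Pald1, Ehd2 and Tmem88, and for Dll4 they were Ehd2 (0.98), Tmem88, Limch1, Nectin2 and Kcna5. Cav1 and Nrp1 each stood in the lists of 2 members, as did Tek, Ehd2 and Tmem88. For Notch3 they were Rasl12 (0.97), Dmd, Pde3a, Gucy1b3 and Parm1, and for Heyl they were Lap3 (0.95), Des, Atoh8, Cabp1 and Akap12. Notch2 had a separate list of Cmip (0.97), Ddx6, N4bp2l1, Irak2 and Pik3ap1. Notch1 was led by Mylip (0.91), Rnf213, Arl5b, Shroom4 and Hexim1, and Jag1 by Nhsl1 (0.96), Kif1b, Rabep1, Kdsr and Nom1.

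By the GENCODE M21 annotation of GRCm38, Notch4 (chr17:34564268-34588503) and Notch3 (chr17:32120820-32166852) lie on the same chromosome, as do Notch1 (chr2:26457903-26516663), Dll4 (chr2:119325784-119335962) and Jag1 (chr2:137081456-137116644). Notch2 (chr3:98013527-98150361) and Hey1 (chr3:8663359-8667256) share chromosome 3, while Hes1 (chr16:30064384-30067796) and Heyl (chr4:123233556-123249875) stand alone. Exons of Notch3, Dll4 and Notch2 overlap those of Gm17276 (6.03% of exon bases), Gm14207 (5.56%) and Gm42820 (5.02%), so part of their reads could belong to these neighbours.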

How the data were processed

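Bulk RNA-seq values of 16 libraries of mouse knee joint cells were used, 4 for each genotype and day, grouped by the labels. Per the study's methods the authors used STAR (mm10) for alignment, featureCounts for gene-level counting and edgeR's TMM method for normalization. The deposited signal values are thus CPM relative to the TMM-scaled library size; tool versions, annotation, low-count filter and strand setting are not given in the sources used here. The table held 13734 rows, of which 1 was an identical duplicate (Fcgr1). For 100% of values the recovered read number was whole (tolerance 0.1 reads). A level of 3 reads equalled 0.101 to 0.250 CPM, which reflects counting error alone. No 2 replicates agreed within sampling noise (chi-square over degrees of freedom at least 10.4), with r across genes from 0.94 to 0.99.

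log2(CPM + 1) was compared with limma 3.58.1 (lmFit, eBayes with trend; R 4.3.3) with the 4 groups as 1 factor. Receptor shares and relations to marker scores were tested with exact two-sided permutation tests (scipy 1.17.1), and figures were drawn with matplotlib 3.10.9. Alternatives were pseudocounts of 0.1 and 5, no filter, a mean of at least 5 CPM, quantile and median-of-ratios scaling, only the groups compared, no trend, the replicate block, edgeR 4.0.16, voom and DESeq2 1.42.0 on recovered reads, a fold change over 1.5 in place of the study's threshold, receptor shares without or with another length, and each library left out. The endothelial covariate and the principal transcript length were added later. The 9 members and all gene lists were chosen with earlier results of these data known. The other pathway genes named were, per injury comparison, up to 4 per direction with the largest change among those called with an adjusted p under 0.05, plus Jag2, Dll1, Lfng, Mfng, Hey2 and Nrarp whatever their values. Of the genes this rule names, 1 is not reported here. Positions come from GENCODE M21, which 13428 of 13733 symbols matched. The tests were tested on simulated data before use.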

Additional observations from a re-analysis of the deposited data

Results flagged for a closer look

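Notch1 at WT D0 had 1 library far from the others: replicate 1 had 407 CPM and the other 3 had 267 to 281 CPM, a gap of 0.901 of the group's range. The share of Notch2 in the receptor mix at Trem2-/- D7 was 31.6% in replicate 3 and 28.5 to 29.0% in the others, a gap of 0.835 of the range. These were 2 of 52 groups of 4 checked with Dixon's criterion, which chance alone meets in about 1 of 20 groups. The injury change of Notch2 differed between genotypes by -0.63 on the log2 scale (interaction in limma, unadjusted p = 0.021, adjusted p = 0.579).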

How the results depend on the processing

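The calls of Notch2 and Jag1 in Trem2-/- after injury kept their direction and stayed past the threshold under every alternative run, with each library left out included, and so did the Notch2 interaction. With a fold change over 1.5, 1 member was called in WT after injury and 0 between genotypes at D7, and Notch1 after injury in Trem2-/- and Heyl in WT were no longer called. With each library left out, the number of members called ranged from 0 to 3 in WT after injury (0 without WT D0 replicate 2), from 0 to 1 between genotypes at D7 and from 0 to 1 at D0. The members near 0 had no stable direction. In Trem2-/- after injury, Notch4, Dll4, Hes1 and Hey1 had log2 fold changes of -0.0799, -0.0693, -0.0679 and -0.0522 with edgeR and -0.0566, -0.0461, -0.0454 and -0.0298 with DESeq2. Hes1 had -0.0254 with quantile scaling, and the endothelial covariate gave -0.0355 for Notch4, -0.0439 for Hes1 and -0.0376 for Hey1. Notch2 in WT had -0.00025 with voom. The cause was not tested. With each library left out, the same values ranged from -0.26 to 0.24 for Notch4, from -0.23 to 0.36 for Dll4, from -0.18 to 0.18 for Hes1 and from -0.21 to 0.19 for Hey1 in Trem2-/-. In WT they ranged from -0.10 to 0.14 for Notch2, from -0.31 to 0.14 for Dll4, from -0.22 to 0.14 for Hes1 and from -0.23 to 0.23 for Hey1, and the change in the Notch4 share from -0.55 to 1.61 points. Replicate numbers do not pair libraries: same-numbered libraries had correlations of their deviations from -0.51 to 0.41, and with the replicate block 2, 3, 1, 0 and 1 members were called in WT and in Trem2-/- after injury, between genotypes at D7 and at D0, and in the interaction, as without it. Depth limited none of the 9 members, each with at least 235 reads per library.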
